A study of Mus musculus with 9 samples.

Results

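The MHC class I antigen presentation genes described here are 10 genes, chosen by name as the rows of the count table whose symbol is H2-K1, H2-D1, H2-T23, B2m, Tap1, Tap2, Tapbp, Psmb8, Psmb9 or Nlrc5, out of 53801 genes in the table. All 10 were found and all 10 passed the filter on low counts. RNA-seq was available for 9 libraries of cultured mouse spermatogonial stem cells (SSCs), which by the study's account carry floxed Prmt5 alleles (Prmt5 flox/flox) and the Rosa26-CreERT2 allele, a tamoxifen-inducible Cre expressed from the broadly active Rosa26 locus, and were given 4-hydroxytamoxifen (4OHT) at 1 µM. The 9 libraries fall into 3 groups of 3, namely 4OHT alone, 4OHT with lentivirus-delivered PRMT5 carrying the E444Q change (catalytically dead, labelled MU), and 4OHT with lentivirus-delivered wild-type PRMT5 (labelled OE). The labels do not spell out MU and OE, so the names PRMT5 (E444Q) and PRMT5 (WT) rest on the study's description. An ethanol control was not analysed here. No group was free of 4OHT or of induced Cre, and neither a vector control nor a statement that the 3 libraries of a group came from separate cultures was given in the sources used here, so p-values measure the spread between these libraries.

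MHC class I molecules carry peptides from inside the cell to its surface, where CD8 T cells read them. A polymorphic heavy chain (in the mouse the classical H2-K and H2-D chains and non-classical chains such as that of H2-T23) pairs with the invariant light chain, beta-2 microglobulin, the product of B2m. Peptides are cut by the proteasome, pumped into the endoplasmic reticulum by the Tap1-Tap2 transporter and loaded with the help of tapasin (Tapbp), and Nlrc5 encodes the transactivator of class I promoters. Germ cells are known for low class I levels on their surface, and interferon is the classical inducer of nearly all of these genes.

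The promoters of H2-K1 and B2m are shown because their values rose and fell most among the members. That of H2-D1 is shown because it is the other classical heavy chain, and that of Tap1 because its window overlaps that of Psmb9. Each is given as the 250 bases before the RefSeq transcription start (GRCm38.p6), 5′ to 3′ on the strand of the gene. Capitals mark matches, on either strand, to the letters AANNGAAA (interferon regulatory factor site), GGGNNTTNC (kappa B site), TGACG (core of the cyclic AMP response element) and CCAAT (bound by NF-Y). Of 32851 promoter windows of the same length, 21.3% held the first, 13% the second, 17.8% the third and 33.8% the fourth.
H2-K1, chr17:34000348-34000597, minus strand: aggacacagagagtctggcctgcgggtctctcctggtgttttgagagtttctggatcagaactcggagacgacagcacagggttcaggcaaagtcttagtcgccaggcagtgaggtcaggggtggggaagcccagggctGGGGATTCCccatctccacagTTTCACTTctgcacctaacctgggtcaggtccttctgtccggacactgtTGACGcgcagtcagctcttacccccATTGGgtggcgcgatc
H2-D1, chr17:35262844-35263093, plus strand: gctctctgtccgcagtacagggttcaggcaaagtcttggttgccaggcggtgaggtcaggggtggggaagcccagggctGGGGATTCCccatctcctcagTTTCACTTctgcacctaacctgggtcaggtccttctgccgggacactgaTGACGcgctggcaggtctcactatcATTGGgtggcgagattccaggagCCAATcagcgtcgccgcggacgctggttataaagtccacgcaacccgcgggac
B2m, chr2:122147437-122147686, plus strand: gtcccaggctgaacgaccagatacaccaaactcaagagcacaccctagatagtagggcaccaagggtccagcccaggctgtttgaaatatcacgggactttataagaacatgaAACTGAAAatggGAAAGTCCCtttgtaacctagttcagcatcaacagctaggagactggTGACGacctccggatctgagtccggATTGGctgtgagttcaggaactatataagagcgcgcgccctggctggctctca
Tap1, chr17:34187306-34187555, plus strand: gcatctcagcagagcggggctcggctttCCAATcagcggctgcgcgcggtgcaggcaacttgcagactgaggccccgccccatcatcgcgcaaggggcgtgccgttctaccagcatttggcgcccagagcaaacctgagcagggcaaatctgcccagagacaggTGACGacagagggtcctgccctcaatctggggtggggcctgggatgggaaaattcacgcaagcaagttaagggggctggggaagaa

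The windows of H2-K1, H2-D1 and B2m each held all 4 motifs. The H2-K1 and H2-D1 windows were close relatives, with 161 identical bases over 177 aligned columns (91.0%). Tap1 and Psmb9 are transcribed in opposite directions from start sites 226 bases apart, so the Tap1 window is largely the Psmb9 window read on the other strand, and it held a TGACG and a CCAAT match but neither of the first 2 motifs. RefSeq windows were found for 8 of the 10 members. Of the remaining 4 windows, that of H2-T23 held 2 interferon regulatory factor matches and a CCAAT match, that of Psmb9 the same matches as Tap1, that of Tapbp 2 CCAAT matches, and that of Psmb8 none of the 4 motifs. Tap2 and Nlrc5 were not matched.

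Library totals ranged from 78751996 to 365719548 counts, with the 3 deepest libraries all in the PRMT5 (E444Q) group. Values are given as CPM, counts scaled to library size with TMM factors, which assume that most genes do not change. The targeted gene, Prmt5, was at 28.2 to 31.9 CPM with 4OHT alone, 145 to 147 CPM in PRMT5 (E444Q) cells and 1071 to 1085 CPM in PRMT5 (WT) cells. These counts do not separate the endogenous transcript from the construct, and as Prmt5 was 86.4% lower in PRMT5 (E444Q) cells than in PRMT5 (WT) cells, the E444Q change and the construct level cannot be told apart. Germ cell markers were present (Ddx4 at 282 to 607 CPM over the 9 libraries), and their sum over 7 genes was 1612 to 1682 CPM with 4OHT alone, 2354 to 2450 CPM in PRMT5 (E444Q) cells and 2577 to 2597 CPM in PRMT5 (WT) cells. These 7 did not move together: Ddx4, Dazl, Sall4 and Uchl1 were higher with either construct, Gfra1 (77.1% and 76.5%) and Zbtb16 (37.3% and 31.4%) were lower, and Id4 did not pass the threshold (log2 -0.063 and -0.113). Markers of 2 other cell types that express class I genes moved with the groups. The summed level of 12 fibroblast markers, which include those of the feeder layer, was 9884 to 11983, 5437 to 5529 and 4279 to 4357 CPM in the same order of groups, and that of 12 macrophage markers was 177 to 191, 1150.1 to 1183 and 2242 to 2367 CPM. Fn1 alone gave 4557 to 5732 CPM of the fibroblast sum with 4OHT alone. All 12 fibroblast markers were lower with PRMT5 (WT). With PRMT5 (E444Q) 11 were lower, and Dcn was higher (log2 0.17, edgeR adjusted p = 0.0106). No fibroblast or macrophage marker was at 0 in any library. The 6 markers of T and NK cells summed to 0.0395 to 0.29, 1.30 to 1.47 and 1.42 to 2.02 CPM in that order. Only Cd3e among them passed the count filter, and it was higher with either construct (0 to 0.0478 CPM with 4OHT alone, 1.04 to 1.91 CPM with the constructs, adjusted p = 6.1e-07 and 2.2e-07), while Ncr1 was at 0 counts in all 9 libraries. The part of these cell types in the class I values was not tested, and in bulk RNA fewer cells of a type and less RNA per cell cannot be told apart.

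Against 4OHT alone, PRMT5 (E444Q) cells had 4 members higher (H2-K1, Tapbp, Psmb8 and Psmb9), 4 lower (H2-D1, B2m, Tap1 and Nlrc5) and 2 not past the threshold (H2-T23 and Tap2), with edgeR's quasi-likelihood test and Benjamini-Hochberg adjustment over all genes at 0.05. That makes 8 of 10 members, where 56.0% of all 22452 genes tested were past the threshold in this comparison (29.5% higher and 26.5% lower). PRMT5 (WT) cells also had 8 of 10 members past the threshold, 4 higher and 4 lower, against 57.8% of all genes (29.9% higher and 27.9% lower). Libraries did not overlap between the groups for 8 members in the first comparison (all but H2-T23 and Tap2) and 9 in the second (all but H2-T23), where 63.9% and 61.6% of all genes did not overlap. A call in either comparison was therefore common among all genes, and the 2 comparisons share the 4OHT libraries. The median log2 fold change of the members was 0.09 in PRMT5 (E444Q) cells and -0.035 in PRMT5 (WT) cells, beside 0.043 and 0.018 over all genes. The members thus did not move as a block, with log2 fold changes from -0.97 to 0.69 and from -1.01 to 0.72.

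**Figure D1:**
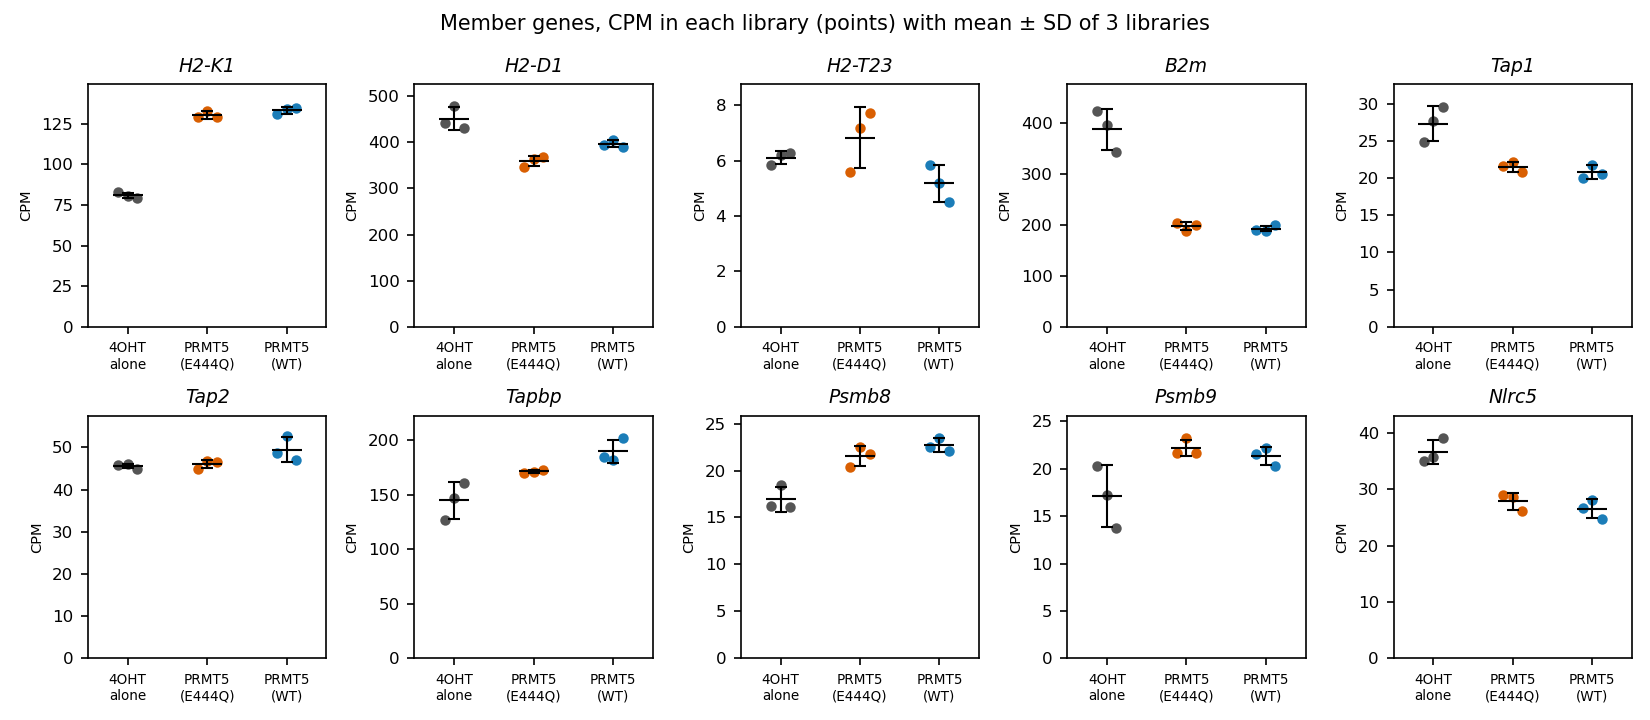
CPM of the 10 member genes (y axis, from 0 in each panel) in the 3 libraries of each group (points), with the mean and SD of 3 libraries (bars). H2-K1 sits at 79.5 to 82.8 CPM with 4OHT alone and at 129 to 135 CPM with either construct, while B2m sits at 344 to 424 CPM with 4OHT alone and at 189 to 205 CPM with either construct.

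Among the class I chains, H2-K1 (chr17:33996017-34000347, minus strand, 8 exons), a classical heavy chain, was the member with the largest increase. It was at 82.8, 80.7 and 79.5 CPM with 4OHT alone, at 129, 133 and 129.5 CPM in PRMT5 (E444Q) cells, and at 131, 134 and 135 CPM in PRMT5 (WT) cells. All 6 construct libraries were above all 3 libraries with 4OHT alone, by a gap many times the SD within groups (1.69 to 2.13 CPM). H2-K1 was 1.61-fold higher in PRMT5 (E444Q) cells (log2 0.69, SE 0.043, adjusted p = 1.06e-08) and 1.64-fold higher in PRMT5 (WT) cells (log2 0.72, SE 0.044, adjusted p = 6.24e-09).

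H2-D1 (chr17:35262730-35267499, plus strand, 8 exons), the other classical heavy chain, went the other way. It was at 443, 479.9 and 431 CPM with 4OHT alone, at 347, 363 and 368 CPM in PRMT5 (E444Q) cells, and at 394, 406 and 391 CPM in PRMT5 (WT) cells. The 3 groups did not overlap, and PRMT5 (WT) cells lay between the others. H2-D1 was 20.5% lower in PRMT5 (E444Q) cells (log2 -0.33, SE 0.049, adjusted p = 5.57e-05) and 12% lower in PRMT5 (WT) cells (log2 -0.19, SE 0.049, adjusted p = 0.00539). The PRMT5 (WT) call was lost with upper-quartile scaling (log2 -0.11, adjusted p = 0.0863).

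B2m (chr2:122147686-122153083, plus strand, 4 exons), the light chain that pairs with class I heavy chains, had the largest fall of the 10. It was at 424, 397 and 344 CPM with 4OHT alone, at 205, 189 and 199.7 CPM in PRMT5 (E444Q) cells, and at 191, 189 and 199.7 CPM in PRMT5 (WT) cells. The construct libraries of both kinds lay between 189 and 205 CPM, well under the lowest library with 4OHT alone. B2m was 49% lower in PRMT5 (E444Q) cells (log2 -0.97, SE 0.068, adjusted p = 2.91e-08) and 50.2% lower in PRMT5 (WT) cells (log2 -1.01, SE 0.068, adjusted p = 1.76e-08).

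H2-T23 (chr17:36029773-36032855, minus strand, 7 exons), which encodes the non-classical chain Qa-1 that NK cell receptors bind, was low and did not pass the threshold. It was at 5.84, 6.22 and 6.27 CPM with 4OHT alone, at 5.61, 7.19 and 7.72 CPM in PRMT5 (E444Q) cells, and at 5.86, 5.19 and 4.5 CPM in PRMT5 (WT) cells. Each construct group overlapped the group with 4OHT alone. The log2 fold change was 0.16 (95% interval -0.11 to 0.43, adjusted p = 0.337) in PRMT5 (E444Q) cells and -0.24 (95% interval -0.52 to 0.033, adjusted p = 0.161) in PRMT5 (WT) cells. Shared sequence was counted over the distinct 100-base windows of all annotated transcripts of a gene. An exact copy in another gene was held by 0.957% (H2-K1), 3.59% (H2-D1) and 3.15% (H2-T23) of these windows, and by none of B2m. Windows of minor transcripts are part of these shares, so the share along the principal transcript can be larger. How reads with several alignments were counted was not given in the sources used here. The study's SSC line came from a cross of C57BL/6 with DBA/2, strains that carry different H2 alleles, and the genetic background of the floxed cells was not given in the sources used here. Reads were aligned to the C57BL/6 reference, and the effect of allele differences on the H2 counts was not tested.

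**Figure D2:**
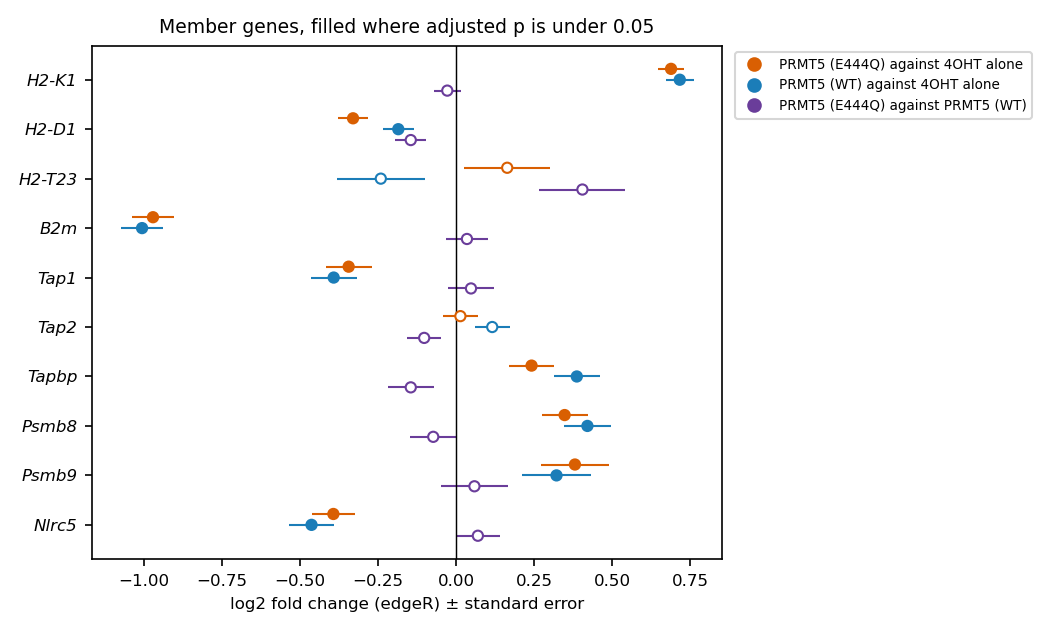
Log2 fold change (x axis, edgeR) with its standard error (bars) for the 10 member genes (y axis) in the 3 comparisons, with filled points where the adjusted p was under 0.05. The points of the constructs against 4OHT alone run from -1.01 (B2m) to 0.72 (H2-K1), and none of the 10 points of PRMT5 (E444Q) against PRMT5 (WT) is filled.

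Among the genes of peptide transport and loading, Tap1 and Tap2, whose products form the transporter as a pair, did not share a pattern. Tap1 (chr17:34187553-34197225, plus strand, 11 exons) was at 24.8, 27.6 and 29.5 CPM with 4OHT alone, at 21.6, 22.1 and 20.8 CPM in PRMT5 (E444Q) cells, and at 20.0, 21.8 and 20.6 CPM in PRMT5 (WT) cells. All 6 construct libraries lay below the lowest library with 4OHT alone. Against the 4OHT group, Tap1 was 21.2% lower in PRMT5 (E444Q) cells (log2 -0.34, SE 0.074, adjusted p = 0.00115) and 23.8% lower in PRMT5 (WT) cells (log2 -0.39, SE 0.074, adjusted p = 0.000429). Tap2 (chr17:34203527-34216321, plus strand, 12 exons) was at 45.9, 46.0 and 45.0 CPM with 4OHT alone, at 44.9, 46.7 and 46.6 CPM in PRMT5 (E444Q) cells, and at 48.6, 52.8 and 47.0 CPM in PRMT5 (WT) cells. The PRMT5 (E444Q) libraries lay across those with 4OHT alone (log2 0.014, 95% interval -0.095 to 0.12, adjusted p = 0.856). The PRMT5 (WT) libraries were all slightly higher without passing the threshold (log2 0.12, adjusted p = 0.0943), which they did pass with upper-quartile scaling (log2 0.19, adjusted p = 0.00875).

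Tapbp (chr17:33915899-33929292, plus strand, 8 exons) encodes tapasin, which holds empty class I molecules at the transporter. It was at 127, 147 and 161 CPM with 4OHT alone, at 170, 171 and 173 CPM in PRMT5 (E444Q) cells, and at 185, 182 and 202 CPM in PRMT5 (WT) cells. The libraries with 4OHT alone were spread widely and still all below the construct libraries. Tapbp was 18.3% higher in PRMT5 (E444Q) cells (log2 0.24, SE 0.073, adjusted p = 0.0115) and 30.8% higher in PRMT5 (WT) cells (log2 0.39, SE 0.073, adjusted p = 0.000408). The PRMT5 (E444Q) call rested on single libraries, as it was lost without 4OHT replicate 1 (log2 0.14, adjusted p = 0.0509) and without PRMT5 (E444Q) replicate 3 (log2 0.22, adjusted p = 0.0503). Tapbp shares 149 exonic bases with Zbtb22 on the same strand and 904 with the far less abundant antisense gene Gm19412, and no strand setting was given in the sources used here.

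The 2 immunoproteasome members, which replace catalytic subunits of the standard proteasome and favour peptides that fit class I grooves, were higher with either construct. Psmb8 (chr17:34197721-34201454, plus strand, 6 exons) was at 16.2, 18.5 and 16.1 CPM with 4OHT alone, at 20.4, 22.5 and 21.8 CPM in PRMT5 (E444Q) cells, and at 22.5, 23.5 and 22.1 CPM in PRMT5 (WT) cells. It was 27.3% higher in PRMT5 (E444Q) cells (log2 0.35, SE 0.074, adjusted p = 0.00115) and 33.9% higher in PRMT5 (WT) cells (log2 0.42, SE 0.075, adjusted p = 0.00025), with no overlap with 4OHT alone. Psmb9 (chr17:34181987-34187764, minus strand, 6 exons) was at 20.3, 17.2 and 13.8 CPM with 4OHT alone, at 21.7, 23.2 and 21.7 CPM in PRMT5 (E444Q) cells, and at 21.6, 22.2 and 20.3 CPM in PRMT5 (WT) cells. The first library with 4OHT alone reached the lowest PRMT5 (WT) library to 3 digits. Psmb9 was 30.2% higher in PRMT5 (E444Q) cells (log2 0.38, SE 0.108, adjusted p = 0.00832) and 25.0% higher in PRMT5 (WT) cells (log2 0.32, SE 0.11, adjusted p = 0.0217). Without 4OHT replicate 3 the PRMT5 (E444Q) value fell to log2 0.24 (adjusted p = 0.0215). The PRMT5 (WT) call was not stable to single libraries. It was lost without 4OHT replicate 2 (adjusted p = 0.0558), 4OHT replicate 3 (log2 0.18, adjusted p = 0.08), PRMT5 (WT) replicate 1 (adjusted p = 0.0565) or PRMT5 (WT) replicate 2 (adjusted p = 0.0717), and in the fit of only the 6 libraries compared (adjusted p = 0.0549). By their GENCODE exons, Psmb9 and Tap1 overlap by 212 exonic bases on opposite strands, where unstranded reads cannot be told apart. The RefSeq starts used for the promoter windows lie apart and give no such overlap.

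Nlrc5 (chr8:94434356-94527272, plus strand, 53 exons), the class I transactivator, was at 35.0, 35.7 and 39.1 CPM with 4OHT alone, at 28.9, 28.6 and 26.1 CPM in PRMT5 (E444Q) cells, and at 26.7, 28.1 and 24.8 CPM in PRMT5 (WT) cells. Every construct library was below every library with 4OHT alone. Nlrc5 was 23.9% lower in PRMT5 (E444Q) cells (log2 -0.39, SE 0.07, adjusted p = 0.000268) and 27.5% lower in PRMT5 (WT) cells (log2 -0.46, SE 0.071, adjusted p = 6.52e-05). Its direction was that of H2-D1, B2m and Tap1 and the opposite of that of H2-K1, Tapbp, Psmb8 and Psmb9.

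PRMT5 (E444Q) was then compared with PRMT5 (WT), the contrast of the construct without catalytic activity with the active enzyme. None of the 10 members passed the threshold with edgeR, DESeq2 or limma-voom, where 3.17% of all genes did with edgeR (2.12% higher and 1.06% lower). At an unadjusted p under 0.05, edgeR had 2 of 10, H2-D1 and H2-T23, against 12.4% of all genes. H2-D1 was 9.58% lower in PRMT5 (E444Q) cells (log2 -0.15, 95% interval -0.24 to -0.048, adjusted p = 0.182), with no overlap between the groups. H2-T23 was 32.4% higher in PRMT5 (E444Q) cells (log2 0.41, 95% interval 0.14 to 0.67, adjusted p = 0.181), with overlapping libraries. In the fit of only the 6 construct libraries, H2-D1 (log2 -0.14, adjusted p = 0.0118) and Tapbp (log2 -0.14, adjusted p = 0.042) did pass the threshold. Both were lower in PRMT5 (E444Q) cells. That fit also called more genes in all, 1565 against 712 in the fit of all libraries.

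For the other members, approximate intervals of the difference between the constructs were as follows. Here and above, the 95% intervals use a normal quantile of the SE, so they are narrower than the quasi-likelihood test allows. That of Tapbp lay wholly on the lower side, while its unadjusted edgeR p was 0.0677. The 95% interval of the log2 difference was -0.11 to 0.057 for H2-K1, -0.096 to 0.17 for B2m, -0.097 to 0.19 for Tap1, -0.21 to 0.007 for Tap2 and -0.29 to -0.002 for Tapbp. It was -0.22 to 0.071 for Psmb8, -0.15 to 0.27 for Psmb9 and -0.068 to 0.21 for Nlrc5. H2-D1, Tap2 and Tapbp were the 3 members whose construct groups did not overlap, where 25.9% of all genes did not overlap. Between the constructs 10 of the 12 macrophage markers were lower and 11 of the 12 fibroblast markers were higher in PRMT5 (E444Q) cells.

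The balance between members was also read within each library, as ratios of counts per length of the principal transcript, in which the scaling of libraries has no part. These 8 ratios were chosen after single values had been seen. With 3 libraries a group the exact two-sided permutation test cannot go below p = 0.10. The ratio of H2-K1 to H2-D1 was 0.243, 0.218 and 0.239 with 4OHT alone, 0.484, 0.477 and 0.457 in PRMT5 (E444Q) cells, and 0.431, 0.428 and 0.447 in PRMT5 (WT) cells. The mean rose from 0.233 ± 0.0131 (SD, n = 3) to 0.473 ± 0.0138 and 0.435 ± 0.0103, so the K chain made up a larger part of the classical heavy chain transcripts with either construct, and the 3 groups did not overlap (exact permutation p = 0.1 for each pair). The ratio of H2-K1 to B2m was 0.112 ± 0.00989 with 4OHT alone, 0.351 ± 0.0208 in PRMT5 (E444Q) cells and 0.366 ± 0.0091 in PRMT5 (WT) cells, the widest shift among the 8 ratios. The ratio of H2-D1 to B2m went from 0.479 ± 0.0448 to 0.743 ± 0.0483 and 0.842 ± 0.0385, so B2m transcript was lower relative to both heavy chains.

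Each immunoproteasome subunit was set beside the standard subunit it replaces. Psmb8 to Psmb5 was 0.089 ± 0.00771 with 4OHT alone, 0.122 ± 0.00502 in PRMT5 (E444Q) cells and 0.126 ± 0.00564 in PRMT5 (WT) cells, without overlap with 4OHT alone. Psmb9 to Psmb6 was 0.0716 ± 0.00877, 0.083 ± 0.00192 and 0.0785 ± 0.00527, and the groups overlapped. Psmb10 to Psmb7, where Psmb10 is the third immunoproteasome subunit and not one of the 10 members, went down from 0.383 ± 0.0255 to 0.236 ± 0.00512 and 0.251 ± 0.00779, without overlap with 4OHT alone. The 3 subunit pairs thus did not shift in 1 direction. Tap1 to Tap2 went from 0.698 ± 0.0681 to 0.544 ± 0.0211 and 0.491 ± 0.0179, with no overlap between any 2 groups. Tap1 to Psmb9, the pair transcribed away from each other with overlapping promoter windows, went from 0.758 ± 0.21 to 0.443 ± 0.0102 and 0.447 ± 0.0212, also without overlap with 4OHT alone.

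**Figure D3:**
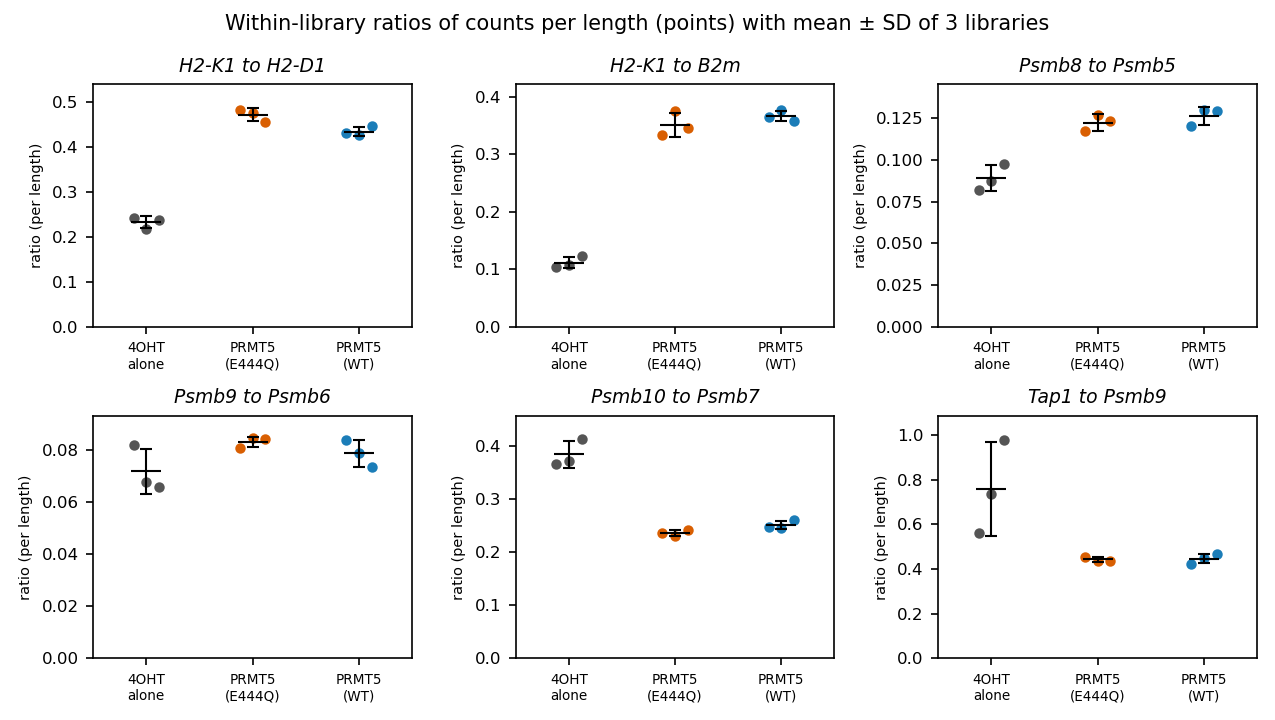
Ratios of counts per length (y axis, from 0 in each panel) of 6 gene pairs in the 3 libraries of each group (points), with the mean and SD of 3 libraries (bars). H2-K1 to H2-D1 is at 0.218 to 0.243 with 4OHT alone and at 0.428 to 0.484 with the constructs, while Psmb10 to Psmb7 is at 0.366 to 0.413 with 4OHT alone and at 0.231 to 0.26 with the constructs.

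Levels were ordered per length, as mean CPM per kilobase of the principal transcript. With 4OHT alone the order was B2m (451.4), H2-D1 (214.8), H2-K1 (50.05), Tapbp (49.94), Tap2 (13.26), Psmb9 (12.64), Psmb8 (10.41), Tap1 (9.243), Nlrc5 (4.827) and H2-T23 (4.149). H2-K1 could not be told from Tapbp there, nor neighbours among Tap2, Psmb9, Psmb8 and Tap1, since their libraries overlapped. With PRMT5 (E444Q) the order opened with B2m (230.2), H2-D1 (170.8), H2-K1 (80.68) and Tapbp (59.08), and closed with Tap1 (7.283), H2-T23 (4.647) and Nlrc5 (3.675), of which the last 2 overlapped. With PRMT5 (WT) it opened with B2m (224.7), H2-D1 (188.9), H2-K1 (82.24) and Tapbp (65.31), and closed with Tap1 (7.047), H2-T23 (3.521) and Nlrc5 (3.504), of which the last 2 again overlapped. B2m stood at the head in each group, followed by H2-D1. H2-K1 and Tapbp came next in each group, in that order by their means, and were apart only with the constructs. Psmb9 was at 16.44 and 15.79 CPM per kilobase with the constructs, above Tap2 at 13.39 and 14.37, and this pair overlapped in PRMT5 (WT) cells but not in PRMT5 (E444Q) cells.

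The genes whose pattern over the 9 libraries was most like that of H2-K1 were sought among 15408 genes with a mean of at least 1 CPM, by the root mean square difference of log2 CPM centred on each gene's mean. Among the 5 nearest were Ppil1 (0.0205), Ilf2 (0.0319), Zc3h15 (0.0335) and Ralgps2 (0.0336), with log2 fold changes between 0.69 and 0.75 in either construct. None of these 4 is a class I gene. The nearest member, Psmb8, differed by 0.164 and the farthest, B2m, by 0.799.

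The rest of the class I pathway was read from 4 lists of 35 other genes, of which 34 were tested. With PRMT5 (E444Q) 14 were higher and 9 lower than with 4OHT alone, and in PRMT5 (WT) cells 14 were higher and 8 lower, with median log2 fold changes of 0.12 and 0.11. Calls were common among all 22452 genes too. Of these, 29.5% were higher and 26.5% lower for the former construct, while 29.9% were higher and 27.9% lower for the latter. The same shares apply to the counts of the single lists below. With RLE or upper-quartile scaling no called gene of these lists turned its direction, and calls near the threshold were lost or gained (both added after the data were seen). Between the constructs none of the 34 passed the threshold with edgeR, DESeq2 or limma-voom, and none was at an unadjusted edgeR p under 0.05.

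Among 11 other heavy chain genes tested, 4 were higher and 2 lower in each comparison with 4OHT alone. H2-Q6, a non-classical Qa-2 region gene, was at 7.99, 10.3 and 7.9 CPM with 4OHT alone, at 28.9, 30.2 and 32.0 CPM in PRMT5 (E444Q) cells, and at 27.2, 32.5 and 33.4 CPM in PRMT5 (WT) cells. Its log2 fold change was 1.80 in PRMT5 (E444Q) cells (adjusted p = 6.24e-09) and 1.83 in PRMT5 (WT) cells (adjusted p = 4.72e-09), larger than that of any member. H2-Q7, which encodes the Qa-2 antigen, was also higher (log2 1.35 and 1.51), as were H2-Q1 (0.93 and 0.91) and H2-M3 (0.34 and 0.34), the chain that presents formylated peptides. H2-T22 (log2 -0.62 and -0.64) and H2-T10 (-1.03 and -1.14), both known as ligands of gamma delta T cells, were lower. H2-T3 had the lowest log2 fold change in PRMT5 (WT) cells but was at 0 to 0.145 CPM throughout and did not pass the threshold. H2-Q6 and H2-Q7 had exact copies of 10.8% and 12% of their 100-base windows in other genes, each including the other, so their separate values are uncertain, and so are those of H2-Q1 (8.05%), H2-T10 (7.06%) and H2-T22 (8.86%).

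**Figure D4:**
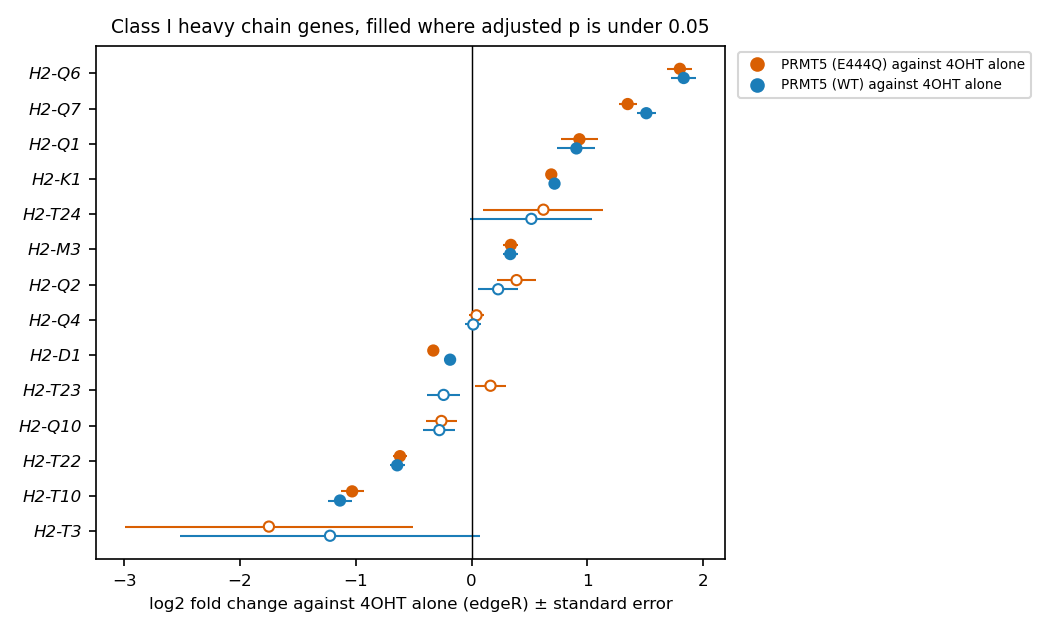
Log2 fold change against 4OHT alone (x axis, edgeR) with its standard error (bars) for 14 class I heavy chain genes (y axis), ordered by the value in PRMT5 (WT) cells, with filled points where the adjusted p was under 0.05. H2-Q6 is at 1.80 and 1.83 and H2-K1 at 0.69 and 0.72 on the right, while H2-T10 is at -1.03 and -1.14 on the left and H2-T3, with wide bars, is not filled.

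Of 5 other genes of peptide loading and trimming, Erap1, the aminopeptidase that trims peptides in the endoplasmic reticulum, was higher (log2 0.15, adjusted p = 0.0437, and 0.20, adjusted p = 0.00992), a call lost with RLE scaling for PRMT5 (E444Q). Canx, the calnexin gene, whose product folds new heavy chains, was at 645 to 678 CPM with 4OHT alone and 431 to 457 CPM with the constructs (log2 -0.55, adjusted p = 1.23e-07, and -0.56, adjusted p = 9.17e-08). Tapbpl, a tapasin relative that edits peptides, was lower with either construct (log2 -0.46 and -0.44), and Calr, calreticulin, was past the threshold in PRMT5 (E444Q) cells alone (log2 -0.12, adjusted p = 0.0311) and at log2 -0.085 (adjusted p = 0.127) in PRMT5 (WT) cells, without a difference between the constructs past the threshold. The Calr call was lost with upper-quartile scaling.

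Of 6 other proteasome genes, 3 were higher and 1 lower in each comparison with 4OHT alone. Psmb10 was the lower one, at 48.7 to 57.1 CPM with 4OHT alone, 42.6 to 43.6 CPM in PRMT5 (E444Q) cells and 44.4 to 47.1 CPM in PRMT5 (WT) cells (log2 -0.33, adjusted p = 0.000556, and -0.25, adjusted p = 0.00372). Of the genes of the 11S activator, Psme2 was higher (log2 0.54, adjusted p = 0.00122, and 0.47, adjusted p = 0.00306) and Psme1 was at log2 0.046 (adjusted p = 0.477) and 0.084 (adjusted p = 0.179). Psmb6 and Psmb7, standard catalytic subunits, were higher, the former for PRMT5 (E444Q) not with RLE scaling, and Psmb5 did not pass the threshold.

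Of 12 genes of factors that act at class I promoters, 6 were higher and 3 lower in each comparison with 4OHT alone. Irf1, a factor of the interferon response, was at 165 to 189.8 CPM with 4OHT alone and 233 to 244 CPM with the constructs (log2 0.43, adjusted p = 1.07e-05, and 0.44, adjusted p = 7.67e-06). Rfxap, a subunit of the RFX complex with which NLRC5 acts, had the largest rise of the 12 in PRMT5 (WT) cells (log2 0.66 and 0.77), and Creb1, Nfya, Nfyb and Nfyc were also higher, Nfya for PRMT5 (E444Q) not with RLE scaling. Nfkb1, which encodes the p50 subunit of NF-kappa B, had the largest fall (log2 -1.04, adjusted p = 5.22e-09, and -1.15, adjusted p = 1.82e-09). Rela, the p65 subunit, was lower (log2 -0.53 and -0.58).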

How the data were processed

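RNA-seq of 9 libraries (3 each of 4OHT alone, PRMT5 (E444Q) and PRMT5 (WT), grouped by the sample titles) was used. Trimming was done by the authors with BBmap and Trimmomatic 0.39, alignment to GRCm38 with HISAT2 2.2.1 and quantification with StringTie 2.2.1 (versions from the submitters' processing notes). The values the authors deposited are raw counts, whole numbers for each gene. How StringTie output became whole numbers is not given in the sources used here. Values of 4 were 1.35 to 1.84 times as frequent as the mean of 3 and 5, so a read pair was taken as about 4 counts, and 12 counts (3 read pairs, 0.0317 to 0.158 CPM) was taken as the floor, which covers counting error only.

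Genes were filtered with filterByExpr (minimum count 10, total 15) in edgeR 4.0.16 (R 4.3.3), which left 22452 of 53801 genes, scaled by TMM and fitted by quasi-likelihood with group as the only factor over all 9 libraries, with Benjamini-Hochberg adjustment and a threshold of 0.05. The common biological coefficient of variation was 0.155. The 95% intervals were the log2 value ± a normal quantile times its SE, which is narrower than the test allows with few libraries. The steps were tested on simulated data. Alternatives were RLE and upper-quartile scaling, no filter, a minimum count of 50, counts divided by 4, DESeq2 1.42.0, limma-voom (limma 3.58.1), the replicate number as a block, only the 6 libraries compared, and leaving out each library. Within-library ratios were added after values had been seen and used exact permutation tests of the difference in mean log2 ratio (numpy 2.4.6).

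The members and gene lists were chosen with earlier results of these data known. All members were named, with Prmt5, the listed genes of largest and smallest log2 fold change of PRMT5 (WT) against 4OHT alone, Irf1, Psmb10, Psme1, Psme2, Ciita, Cd74 and the 5 genes most like H2-K1. Other listed genes were named after their values were seen, and 2 genes that the rule names are not reported here. Lengths, coordinates and overlaps came from GENCODE vM21 (53620 identifiers matched), and promoters from RefSeq. The symbol Itgam stands for 2 genes, of which the one with more counts was used.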

Additional observations from a re-analysis of the deposited data

How the results depend on the processing

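Over 18 alternatives and 10 members, direction and side of the threshold were kept in 171 of 180 cases for PRMT5 (E444Q) against 4OHT alone, 173 of 180 for PRMT5 (WT) against 4OHT alone and 177 of 180 between the constructs. H2-K1, B2m, Tap1, Psmb8 and Nlrc5 kept their calls against 4OHT alone under every one of them. The sign of Tap2, not called with PRMT5 (E444Q), turned with RLE scaling, DESeq2 and counts divided by 4 (log2 -0.016 each) and with a minimum count of 50 (-0.010), and ranged from -0.010 to 0.038 with libraries left out. That of H2-K1 between the constructs turned without a filter (0.011). Genes called between the constructs numbered 712, against 1565 with only those 6 libraries and 1140 with DESeq2. They ranged from 400 to 1099 with libraries left out, with the largest count without 4OHT replicate 3 and counts of 400 to 487 without any 1 library of a construct. The members called there went from 0 to 2 with only those 6 libraries. Libraries with 4OHT alone differed most from each other. Over 2742 abundant genes their coefficient of variation had a median of 6.56%, beside 2.02% for PRMT5 (E444Q) and 2.51% for PRMT5 (WT). In the fit of all 9 libraries, those with 4OHT alone enter the estimate of spread used between the constructs. The cause of the changes in the number of calls was not tested. Same-numbered libraries did not deviate together (correlations from -0.088 to 0.036 over 9 pairs), so the numbers were not taken to pair them, and 1 of 9 libraries correlated best with its own number. With the replicate block 12443, 12807 and 674 genes and 8, 8 and 0 members were called. H2-T23 had the lowest counts of the 10 members, at 443 to 2721 counts per library. Its coefficient of variation was 3.84% with 4OHT alone, 16.0% in the deeper PRMT5 (E444Q) libraries and 13.1% in PRMT5 (WT) cells. The part of depth in its intervals was not tested.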

Other observations

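MHC class II genes, which professional antigen-presenting cells express, were low in these libraries. Of 7 class II genes, 3 were higher with either construct than with 4OHT alone, beside 29.5% and 29.9% of all genes. Cd74, the invariant chain, was at 3.29 to 3.56 CPM with 4OHT alone, 7.02 to 8.41 CPM with PRMT5 (E444Q) and 8.21 to 9.11 CPM with PRMT5 (WT) (edgeR log2 1.15, adjusted p = 7.03e-07, and 1.32, adjusted p = 1.59e-07). H2-Aa was at 0, 0.0717 and 0 CPM with 4OHT alone and at 1.07 to 2.03 CPM with the constructs. Ciita, the class II transactivator, was at 0.275 to 0.424 CPM with 4OHT alone and 0.0255 to 0.193 CPM with the constructs, past the threshold with PRMT5 (WT) (log2 -2.02, adjusted p = 0.0332) and not with PRMT5 (E444Q) (log2 -1.50, adjusted p = 0.0863). H2-Ab1 was lower with either construct, a call lost for PRMT5 (WT) with upper-quartile scaling. These values stand beside the macrophage and dendritic cell markers, of which Zbtb46 was at 8.68 to 9.06 CPM with 4OHT alone and 30.9 to 35.0 CPM with the constructs, while Xcr1 and Siglech stayed at or under 0.179 CPM. Their part in the class II values was not tested.

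Of 14 interferon-induced genes, 3 were higher and 5 lower with each construct than with 4OHT alone. Cxcl10 was higher (log2 1.10 and 1.16), as were Usp18 and Igtp. Ifit3 (log2 -1.83 and -2.26) and Irgm1 (log2 -1.61 and -1.57) were among the lower ones, with Gbp2, Xaf1 and Ifi35, of which Ifi35 was not called with upper-quartile scaling. Of 9 genes tested for interferon receptors and signalling, the threshold was passed upward by 3 for PRMT5 (E444Q) and 1 for PRMT5 (WT), and downward by 4 for each. Ifnar2 (log2 -0.87 and -0.93), Ifngr1, Ifngr2 and Jak1 were lower and Tyk2 was higher (log2 0.59 and 0.74) with either construct. Jak2 (log2 0.18, edgeR adjusted p = 0.00994) and Stat2 (log2 0.21, adjusted p = 0.0307) passed the threshold as higher with PRMT5 (E444Q). Neither did with PRMT5 (WT) (adjusted p = 0.119 and 0.41). Between the constructs neither passed it, with edgeR adjusted p = 0.626 for Jak2 and 0.0635 for Stat2 (log2 0.28, higher with PRMT5 (E444Q)). Ifnb1 had 0 counts in all 9 libraries, which allows up to 0.0317 to 0.158 CPM. In the testis somatic list, Wt1 was higher and Sox9 lower with either construct, and Amh, at 0 to 0.171 CPM over the 9 libraries, was lower with PRMT5 (WT) (adjusted p = 0.0177).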
